A study of Mus musculus with 7 samples.

Results

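Mouse epididymal fat pads were divided by whether their RNA held a high level of Serpina1f, a transcript of the epididymis that lies against this depot. All 7 libraries of the study were members. The libraries were chosen by the log2 value of Serpina1f, which encodes a serine protease inhibitor, at its probe set 10402383. Wild type replicates 1, 3 and 4 (WT1, WT3 and WT4) read above 8 and formed the Serpina1f-high set, 3 libraries of 7. Wild type replicate 2 (WT2) and the 3 transgenic libraries (TG1, TG2 and TG3) read below 5 and formed the Serpina1f-low set, 4 libraries of 7. The value just inside the division was 10.70 in WT1, and the value just outside it was 3.73 in TG2. The study had compared genotypes, and its controls were 4 wild type C57Bl/6J libraries. The other 3 libraries came from mice made on that strain with an aP2-XBP1 transgene, which overexpresses XBP1, a factor that switches on genes for protein folding in the endoplasmic reticulum. The aP2 promoter is that of Fabp4, which adipocytes use strongly and macrophages can use as well. All mice were male, aged 17 weeks and fed standard chow, and each library was 1 Affymetrix Mouse Gene 1.0 ST array. Nothing in the labels ties the numbered replicates to separate animals, and the spread between them may be technical.

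The epididymis is the coiled duct in which sperm mature after leaving the testis. Its epithelium secretes protease inhibitors, defensins and sperm-coating proteins that differ from one segment of the duct to the next, and a coat of smooth muscle thickens along the duct towards the vas deferens. The fat pad wraps this duct, so the pad, the duct, the testis and the seminal vesicles lie close together at dissection.

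Because the Serpina1f value itself chose the sets, and every gene was measured in the same 7 libraries, all differences between the sets are given as descriptions with no test. All 3 Serpina1f-high libraries were wild type and 3 of the 4 Serpina1f-low libraries were transgenic, so genotype and the division cannot be told apart over the 7 libraries. WT2 is the one Serpina1f-low library of wild type, and the difference within wild type, the mean of WT1, WT3 and WT4 minus WT2, is therefore given beside the difference between the sets. It rests on 1 library on its low side and has no spread there. In RNA from a whole pad, fewer cells of a type and less RNA per cell cannot be told apart.

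Several libraries stood apart from the others in transcripts of further tissues. WT4 held sperm transcripts, and 321 of 19938 genes (1.61%) were at least 1 log2 unit above all the other 6 libraries there. The same count was 35 in WT1, 13 in WT2, 1 in WT3 and between 2 and 4 in the transgenic libraries. WT2 held seminal vesicle transcripts, with a lower level in TG3. WT1 and WT3 shared high macrophage genes. TG1, a Serpina1f-low library, was the highest library for 9 of 30 genes of the upper epididymis, at low levels that are given with that list. Array medians lay between 3.99 and 4.04 and the median of all values was 4.02. The labelled tissue was present in every library: Adipoq, the hormone adiponectin, read 11.09, 11.34 and 11.56 in WT1, WT3 and WT4, 11.74 in WT2, and 11.83, 11.80 and 11.69 in TG1 to TG3. Xbp1 followed the genotype labels and not the division, with 8.90 to 9.19 over the 4 wild type and 9.66 to 9.99 over the 3 transgenic libraries.

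The 6 genes used as tract markers are expressed along the epididymal duct. Serpina1f read 10.70, 10.84 and 11.50 in WT1, WT3 and WT4 against 2.74 in WT2 and 2.90, 3.73 and 2.83 in TG1 to TG3. Its difference was 7.96 on the log2 scale, which is 249-fold, and 8.27 within wild type. The Serpina1f-low set lay close to the lower quartile of all values on the arrays, 2.65, and WT2 was the lowest library of all. Spink8, a Kazal-type protease inhibitor, read 8.82, 8.89 and 9.51 against 2.45 in WT2 and 2.78, 2.89 and 2.63 in the transgenic libraries, an 83.8-fold difference. Defb42, a beta-defensin of the epididymal epithelium, read 8.41, 8.41 and 9.14 against 2.51 in WT2 and 3.17, 2.69 and 2.48, a 61.4-fold difference. For both genes every library of the Serpina1f-low set was near the floor of the arrays, and WT4 was the highest library.

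The stretches just upstream of the genes that define the division are shown to place them in the genome. They are the 250 bases before the annotated start, 5′ to 3′ on the gene's strand, from RefSeq's GRCm38.p6 annotation. The Serpina1f stretch lies at chr12:103695530-103695779 on the minus strand and the Defb42 stretch at chr14:63046741-63046990 on the plus strand. Spink8, Cd52 and Anxa13 had no such stretch to print and are named only. Neither printed stretch held AGAACA, a hexamer bound by the androgen receptor, on either strand.
Serpina1f: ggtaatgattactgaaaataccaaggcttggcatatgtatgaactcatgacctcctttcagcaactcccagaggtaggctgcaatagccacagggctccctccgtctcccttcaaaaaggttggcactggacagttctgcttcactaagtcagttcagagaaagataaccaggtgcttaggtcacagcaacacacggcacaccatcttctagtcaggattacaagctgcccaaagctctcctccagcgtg
Defb42: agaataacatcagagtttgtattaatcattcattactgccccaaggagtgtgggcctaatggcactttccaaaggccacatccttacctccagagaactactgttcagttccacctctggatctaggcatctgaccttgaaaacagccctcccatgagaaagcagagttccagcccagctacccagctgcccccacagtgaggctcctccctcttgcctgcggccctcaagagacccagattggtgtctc

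The other 3 markers are found towards the distal duct and vas deferens. Ptgs2, the inducible cyclooxygenase that starts prostaglandin synthesis, read 11.09, 11.28 and 11.84 against 4.98 in WT2 and 4.85, 5.10 and 4.20 in TG1 to TG3, a difference of 6.62. Cd52, a small GPI-anchored glycoprotein that epididymal cells pass to sperm and that lymphocytes also make, read 9.98, 9.67 and 10.33 against 6.64, 6.24, 6.29 and 6.40. The sets did not overlap. Anxa13, an annexin of epithelial cells, read 6.59, 6.63 and 7.13 against 2.70, 2.96, 2.62 and 2.63. The 6 markers were chosen for this division, so their agreement on it is a description.

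**Figure D1:**
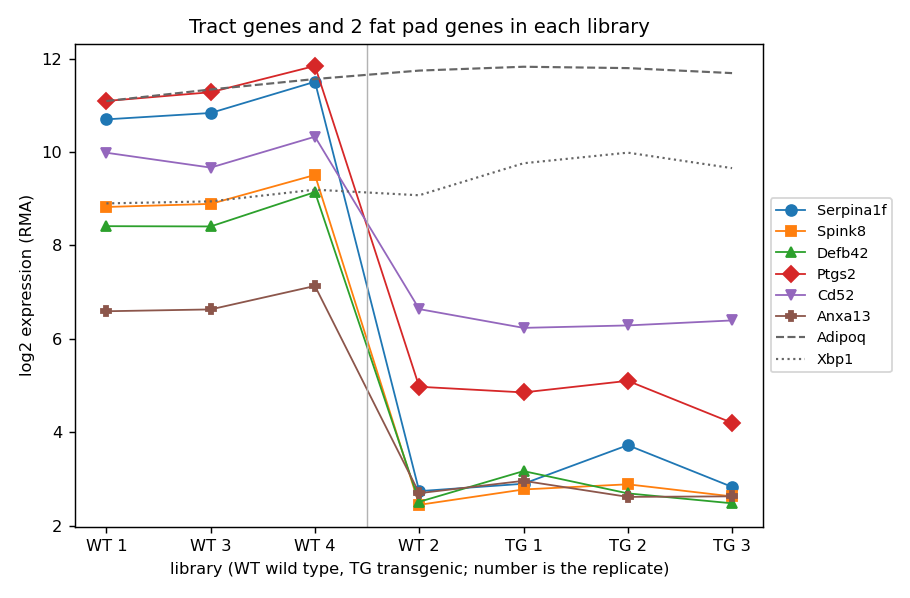
Log2 expression after RMA (vertical axis) of the 6 tract genes, of Adipoq and of Xbp1 in each of the 7 libraries (horizontal axis, WT wild type, TG transgenic). Each point is 1 library, and the vertical line divides the 3 Serpina1f-high libraries from the 4 Serpina1f-low ones. All 6 tract genes drop to the right of the line, Serpina1f from at least 10.70 to at most 3.73, while Adipoq stays between 11.09 and 11.83.

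A gene was counted as higher or lower in the Serpina1f-high set where the sets did not overlap and their means differed at least 2-fold. Of 21789 probe sets with 1 gene symbol, 166 (0.762%) were higher and 46 (0.211%) were lower. Counted by the brightest probe set of each of 19938 genes, 159 (0.797%) were higher and 44 (0.221%) lower. A gap of at least 1 log2 unit between the nearest libraries of the sets was met by 82 probe sets (0.376%) or 79 genes (0.396%) upward and by 0 (0%) downward. Sets that did not overlap, at any fold, were more common, with 928 probe sets (4.26%) or 798 genes (4%) higher and 1420 probe sets (6.52%) or 1326 genes (6.65%) lower. Without WT4 the counts were 300 higher and 87 lower, with 145 and 6 past the gap, and without TG3 30 probe sets were lower. These counts were largest where WT4 was left out. Within wild type, where the mean of WT1, WT3 and WT4 had to differ at least 2-fold from WT2 with all 3 on one side of it, 211 probe sets (0.968%) or 204 genes (1.02%) were higher. By the same rule 55 probe sets (0.252%) or 51 genes (0.256%) were lower. The median difference over all genes was -0.0078.

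For the higher probe sets the place of WT2 among the Serpina1f-low libraries was near that over all genes, and for the lower ones it was not. Among the 166 higher probe sets it lay within the range of the 3 transgenic libraries in 83, below all of them in 45 and above all of them in 38. Over all genes 55.3% lay within and 24.6% below. WT4 was the highest of the 3 Serpina1f-high libraries in 137 of the 166 (82.5%), against 29.3% of all genes. WT1 was highest in 19 and WT3 in 10.

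Genes of the secretory duct were counted from lists, which were drawn up with earlier results of these data known. The list of the initial segment and caput, the upstream end of the duct, had 30 measured genes. Of these 4 were higher (Serpina1f, Spink8, Defb42 and Wfdc15b) and 0 lower, against 0.797% and 0.221% of all genes. The median difference was 0.012. The defining caput genes Lcn5, Lcn8, Gpx5, Crisp4, Adam7 and Ros1 were not among those counted, and 22 of the 30 read below the median of all values in every library, against 38.2% of all genes. TG1, not a Serpina1f-high library, was the highest of the 7 for 9 of the 30, and WT4 for 8. Adam7, a disintegrin family member passed to sperm, read 4.69 in TG1 and between 3.04 and 3.60 in the other 6, and the lipocalin Lcn8 read 4.14 in TG1 and between 2.51 and 3.09 elsewhere. Both led in TG1 by over 1 log2 unit, so the Serpina1f-low set was not shown to be free of epididymal transcripts. Wfdc15b, of the whey acidic protein family of protease inhibitors, read 6.16, 5.85 and 6.68 against 3.23 in WT2 and 3.45, 3.37 and 2.92. The Serpina1f-high libraries were all above the others for Wfdc15b. The name epididymal therefore rested on a minority of the listed segment genes. In the list of the distal epididymis and vas deferens, 4 of 18 were higher (Ptgs2, Anxa13, Cd52 and Aqp9) and 0 lower. The shares over all genes were again 0.797% and 0.221%, and the list median was 0.069. Aqp9, an aquaglyceroporin of principal cells, read 6.80, 6.91 and 7.69 against 5.11 in WT2 and 5.23, 4.82 and 4.48. Spinkl, of the same list, went the other way, with 4.76 in WT2 and between 2.04 and 2.27 in the other 6.

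Beta-defensins, antimicrobial peptides of which many are made in the epididymis, were taken as a family by symbol after the data were seen. Of 40 measured, 3 were higher and 0 lower, against 0.797% and 0.221% of all genes. In every library 35 of the 40 read below the median of all values, against 38.2% of all genes. Defb30 read 5.13, 4.74 and 6.06 against 3.14 in WT2 and 3.47, 4.00 and 3.42. Defb43 read 5.62, 5.01 and 5.84 against 4.04, 4.03, 4.01 and 3.72. Both differences were smaller than that of Defb42, and neither had a gap of 1 log2 unit between the sets.

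Some genes shared by many epithelia were higher. Of 27 measured, 8 were higher and 0 lower, against 0.797% and 0.221% of all genes. The median difference was 0.78, and 0.65 within wild type. Cldn8, a claudin of tight junctions in ducts, had the largest difference of the list, with 4.95, 5.46 and 5.84 against 2.61 in WT2 and 2.68, 2.31 and 2.41. Cldn4 differed by 1.63, Cdh1, which encodes E-cadherin, by 1.16, and Esrp1, an epithelial splicing factor, by 1.12. Krt8 and Krt19, keratins that mesothelium also makes, had overlapping sets. Krt8 read 7.06, 7.97 and 8.29 against 7.39 in WT2 and 7.55, 7.30 and 6.74, so WT1 lay below 3 libraries of the other set.

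Each list of particular cell types or functions of the duct epithelium had 0 or 1 higher gene. Over all genes the share was 0.797%, and lists of 11 to 18 genes are too short to show a shortage against it. Of 12 genes of clear and narrow cells, which acidify the lumen, 0 were higher or lower and the median was 0.0065. Their best known regulator Foxi1 stayed between 2.57 and 2.82. Atp6v0d2, a proton pump subunit that activated macrophages also use, read 8.75 and 8.67 in WT1 and WT3, 4.26 in WT4, 7.56 in WT2 and 4.57, 4.84 and 6.46 in TG1 to TG3. It was high in WT1 and WT3, as the macrophage genes described further on were, and lowest in WT4, which was highest for the tract genes. Of 11 basal cell genes, 1 was higher, the keratin Krt5, with 5.45, 4.66 and 5.22 against 3.40 in WT2 and 3.41, 4.41 and 3.91, and the list median was 0.093. Of 18 genes of ion and fluid transport 1 was higher, Aqp9, and the median was -0.19. Cftr and Slc26a3, chloride and bicarbonate channels and exchangers, had overlapping sets. Of 18 genes of multiciliated cells, which line the efferent ducts between testis and epididymis, 0 were higher or lower and the median was -0.053. Rsph1, a radial spoke protein of cilia and sperm tails, read 6.89 in WT4 and between 3.76 and 4.59 in the other 6.

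A minority of the listed transcription factors of the duct were higher, though a larger share than over all genes. Of 26 measured factors and steroid receptors 3 were higher and 0 lower, with a median of 0.15. Over all genes 0.797% were higher and 0.221% lower. Pax8, a factor of the embryonic duct and kidney, read 6.28, 6.32 and 6.58 against 5.09 in WT2 and 4.98, 5.30 and 4.77. Emx2, needed for the urogenital ducts, differed by 1.33, and Elf5, of glandular epithelium, by 1.26. Gata3, a zinc finger factor of ducts and of T cells, lay outside the list and read 6.73, 6.06 and 7.42 against 3.53 in WT2 and 4.03, 3.62 and 3.31. All 4 of these factors had sets that did not overlap. The estrogen receptor Esr1 had overlapping sets and a difference of -0.51.

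Other genes with large differences were enzymes, transporters and surface proteins. Gldc, the glycine cleavage decarboxylase, read 6.71, 6.81 and 7.79 against 3.96 in WT2 and 3.58, 3.99 and 3.82. Emb, the membrane glycoprotein embigin that carries monocarboxylate transporters, read 8.62, 8.62 and 9.30 against 5.87 in WT2 and 5.36, 5.77 and 5.90. Plac8, a small cysteine-rich protein of epithelia and leukocytes, read 6.60, 6.99 and 7.74 against 3.51 in WT2 and 3.53, 4.28 and 3.65. In all 3 genes WT4 was the highest library and WT2 lay within the transgenic range or just below it. Upstream stretches of Emb (chr13:117220323-117220572, plus strand) and Aqp9 (chr9:71163290-71163539, minus strand) are printed because each holds the androgen receptor hexamer AGAACA, in capitals. The hexamer, as AGAACA or its complement TGTTCT, stood upstream of any annotated start in 26 of 133 higher genes with an entry in the table, 19.5%, against 18.2% of all 27025 genes with one. The share among the higher genes was thus near that of all genes.
Emb: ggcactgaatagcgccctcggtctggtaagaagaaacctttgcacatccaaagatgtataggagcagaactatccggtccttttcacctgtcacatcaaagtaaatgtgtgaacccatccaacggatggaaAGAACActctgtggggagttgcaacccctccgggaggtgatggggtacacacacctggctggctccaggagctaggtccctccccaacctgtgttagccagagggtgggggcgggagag
Aqp9: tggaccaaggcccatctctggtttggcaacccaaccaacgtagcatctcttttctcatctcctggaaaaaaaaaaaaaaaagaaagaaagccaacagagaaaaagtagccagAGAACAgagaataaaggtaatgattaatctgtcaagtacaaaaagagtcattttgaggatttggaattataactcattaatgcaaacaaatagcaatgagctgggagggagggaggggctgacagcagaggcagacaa

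Several prostaglandin genes were higher, from the release of the precursor to its breakdown. Of 18 measured, 5 were higher and 0 lower, against 0.797% and 0.221% of all genes, with a median of 0.11. The higher members were Ptgs2, the phospholipase Pla2g4a that releases arachidonic acid, the prostaglandin E synthase Ptges, the carrier Slco2a1 and the degrading enzyme Hpgd. Slco2a1 read 9.01, 9.16 and 9.75 against 6.66 in WT2 and 6.79, 6.46 and 6.18, and Hpgd read 10.32, 10.61 and 11.15 against 9.32, 9.18, 8.51 and 8.51. The sets did not overlap for either, and Slco2a1 and Ptgs2 were the members with a gap of at least 1 log2 unit. Ptges read 8.49, 8.36 and 9.05 against 6.44 in WT2 and 6.94, 7.06 and 7.64, and Pla2g4a differed by 1.35. The synthases Hpgds and Tbxas1, which macrophages and mast cells make, were high in WT1 and WT3 and low in WT4, and their sets overlapped. Hpgds read 7.32, 6.93 and 4.79 against 5.68 in WT2 and 4.83, 5.60 and 5.68.

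Smooth muscle genes had the largest share of higher members among the 28 lists. Of 25 measured, 17 were higher and 0 lower, 15 of them with a gap of at least 1 log2 unit. Over all genes 0.797% were higher, 0.221% lower and 0.396% past the gap upward. The list median was 1.59, with 1.54 within wild type. All 25 were highest in WT4 of the 7 libraries, against 14.8% of all genes. Cnn1, the calponin of differentiated smooth muscle, read 9.92, 9.76 and 10.44 against 5.75 in WT2 and 5.10, 6.07 and 4.89, a difference of 4.58. Actg2, the enteric actin of visceral smooth muscle, read 9.14, 8.92 and 10.13 against 5.47 in WT2 and 4.99, 5.61 and 4.86. Myh11, its myosin heavy chain, read 10.92, 10.92 and 11.51 against 8.21 in WT2 and 8.27, 8.53 and 7.75. Acta2, an actin that vessel walls also make strongly, differed by 1.43, and Hspb8 and Rbpms of the same list differed by 0.010 and 0.27. The largest difference of the list was that of Pcp4, a calmodulin-binding peptide of neurons and muscle, which read 10.67, 10.47 and 10.98 against 4.55 in WT2 and 4.93, 5.83 and 4.37. Myocd, the coactivator of serum response factor that drives smooth muscle genes, differed by 1.34. P2rx1, the ATP-gated channel through which sympathetic nerves contract the vas deferens, read 7.91, 7.96 and 8.72 against 4.54 in WT2 and 4.40, 4.39 and 4.29. Genes of Schwann cells, the sheath of those nerves, did not go with it: 0 of 7 were higher or lower.

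Some sarcomere genes were higher as well, in a list of 22 striated muscle genes added after the data were seen. Of these 8 were higher and 0 lower, against 0.797% and 0.221% of all genes, and the median was 0.069. Mybpc1, a myosin-binding protein of slow skeletal muscle, read 5.95, 5.82 and 6.88 against 2.80 in WT2 and 2.90, 3.13 and 3.20. Casq1, Acta1 and Smpx differed by 2.20, 2.11 and 1.95. Myl1, a fast skeletal myosin light chain, lay lower, with 5.90, 6.22 and 6.89 against 7.52 in WT2 and 6.91, 7.27 and 7.22, a difference of -0.89. The sarcomere genes therefore did not move as a block between the sets.

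The CArG box, CC followed by 6 A or T bases and GG, is the site bound by serum response factor. It stood upstream of any annotated start in 8 of 133 higher genes with an entry (6.02%) and in 439 of 27025 genes (1.62%). The 8 were Acta1, Myl9, Myom1, Dmd, Asb2, Cited1, Tmc4 and Gm9573. In the smooth muscle list 1 of 20 genes with an entry held it (5%), Myl9, and Actg2, Myh11 and Tagln had no entry. The share was larger in the list of late spermatid and sperm genes, with 3 of 24 (12.5%). It was 0 of 17 in the list of genes shared by many epithelia and 0 of 15 in the adipocyte list. Only exact matches in the 250 bases were counted, so a near match, as in Acta2, or a box further away was not. The upstream stretches of Myl9 (chr2:156775214-156775463, plus strand), Acta1 (chr8:123894776-123895025, minus strand) and Myom1 (chr17:71019307-71019556, plus strand) are printed with the box in capitals, and in Acta1 the TATAAA near the start is in capitals too. A match of letters is a description of the sequence and not of binding. Myl9, the regulatory light chain, read 9.70, 9.65 and 10.35 against 8.11 in WT2 and 7.95, 8.16 and 7.47. Acta1 and Myom1 encode skeletal actin and the M-band protein myomesin, and Myom1 differed by 1.43.
Myl9: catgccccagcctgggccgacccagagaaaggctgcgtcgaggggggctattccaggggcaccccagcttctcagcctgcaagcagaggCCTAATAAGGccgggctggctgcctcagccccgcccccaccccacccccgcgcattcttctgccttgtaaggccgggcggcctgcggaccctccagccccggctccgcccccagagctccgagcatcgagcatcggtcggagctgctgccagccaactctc
Acta1: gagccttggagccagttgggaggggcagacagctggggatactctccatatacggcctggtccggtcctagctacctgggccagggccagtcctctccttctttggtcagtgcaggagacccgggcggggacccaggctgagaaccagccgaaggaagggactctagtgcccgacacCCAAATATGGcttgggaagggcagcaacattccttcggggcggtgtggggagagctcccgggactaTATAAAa
Myom1: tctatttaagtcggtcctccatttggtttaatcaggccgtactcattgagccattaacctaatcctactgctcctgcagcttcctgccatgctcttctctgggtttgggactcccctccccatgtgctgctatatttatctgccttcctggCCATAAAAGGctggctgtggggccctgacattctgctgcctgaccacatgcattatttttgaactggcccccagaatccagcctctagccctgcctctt

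**Figure D2:**
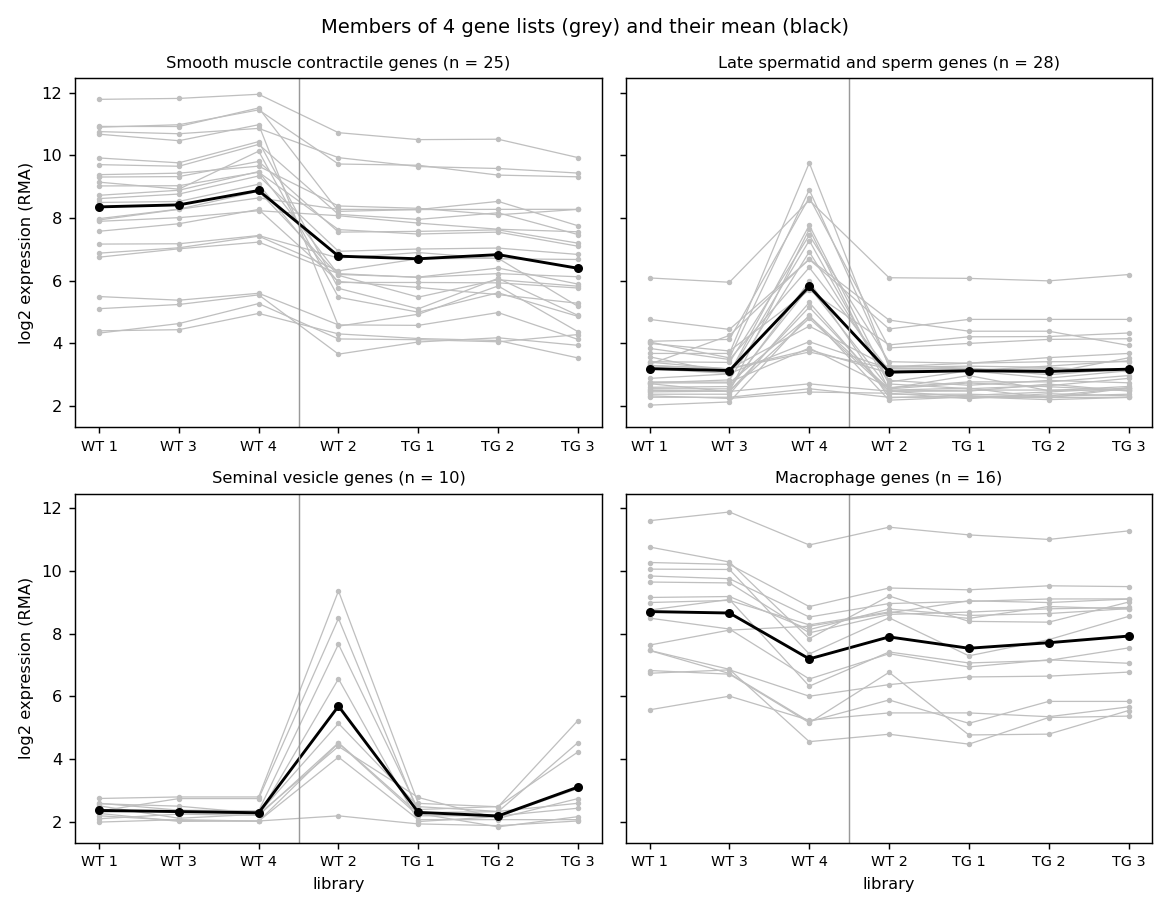
Log2 expression after RMA (vertical axis) of the members of 4 gene lists in each library (horizontal axis). Grey lines are single genes, the black line is their mean, and the vertical line divides the 3 Serpina1f-high libraries from the 4 Serpina1f-low ones. The mean of the 25 smooth muscle genes lies between 8.35 and 8.88 on the left and between 6.39 and 6.83 on the right, while the other lists rise in single libraries or pairs: sperm in WT4, seminal vesicle in WT2, macrophage in WT1 and WT3.

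The 3 Serpina1f-high libraries were not alike, and WT4 carried sperm transcripts that read near the level of the Serpina1f-low set in WT1 and WT3. All 28 genes of late spermatids and sperm were highest in WT4, 21 of them by at least 1 log2 unit over every other library. Prm2, a protamine that packs sperm DNA, read 9.76 in WT4 and between 3.25 and 3.68 in the other 6. Crisp2 read 7.64 in WT4 and between 2.25 and 2.71 elsewhere, and Smcp, of the sperm mitochondrial capsule, read 8.90 against 3.05 to 4.04. The mean of the 28 genes was 5.82 in WT4, 3.19 in WT1, 3.13 in WT3, and between 3.08 and 3.17 in the Serpina1f-low set. The list median between the sets was 0.83, and it was 0.021 without WT4. By the rule 1 of the 28 was higher, Dkkl1, where the share over all genes was 0.797%. Dkkl1 read 3.84, 3.48 and 6.42 against 3.13 in WT2 and 3.13, 3.27 and 3.44, so its gap rested on 0.04 log2 units.

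Some genes of earlier germ cells and of the testis's somatic cells were also highest in WT4. Of 15 genes of spermatogonia and spermatocytes 12 were highest in WT4, 3 by at least 1 log2 unit, where 14.8% of all genes were highest in WT4. Between the sets 0 were higher or lower, with a median of 0.20, and of -0.020 without WT4. Mael, which guards germ cells against transposons, read 6.51 in WT4 and between 2.01 and 2.31 elsewhere, and the germ cell helicase Ddx4 read 5.74 against 2.00 to 2.26. Sycp3, of the same list, went the other way and was highest in TG2, at 6.40. It read 4.56 in WT4 and between 2.87 and 4.33 in the remaining libraries. In every library 11 of the 15 genes read below the median of all values, against 38.2% of all genes. Of 13 Sertoli and Leydig cell genes 6 were highest in WT4, 2 by at least 1 log2 unit, 0 were higher or lower between the sets and the median was 0.061. Cyp17a1, an enzyme of androgen synthesis in Leydig cells, read 5.83 in WT4 and between 2.75 and 2.91 elsewhere. Inhbb, an inhibin subunit of the same list that adipocytes also make, read lowest in WT4, at 4.79 against 4.92 to 5.61 in the other 6. How far sperm or testis transcripts entered the differences of other genes was not tested, and values without WT4 stand beside the counts above.

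Seminal vesicle transcripts went against the division. Of 10 measured secretory genes 9 were highest in WT2, each by at least 1 log2 unit, and 0 were higher or lower between the sets. Svs2, the main clotting protein of seminal vesicle fluid, read 9.36 in WT2, 5.22 in TG3 and between 2.47 and 2.79 in the other 5. Svs5 read 8.49 in WT2, 4.52 in TG3 and between 2.29 and 2.73 elsewhere. WT2 and TG3 were the highest pair in 6 of the 10, against 4.17% of all genes. The list mean was 5.69 in WT2, 3.10 in TG3 and between 2.18 and 2.35 in the other 5. The median difference was -0.73 between the sets, -0.15 without WT2 and -2.56 within wild type. The Serpina1f-low set therefore was not free of tract transcripts, and WT2 is the only low side of the values within wild type. Of 7 prostate and coagulating gland genes 0 were higher or lower and the median was 0.023. Msmb, of prostate secretion, stayed between 2.18 and 2.60.

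Macrophage and matrix genes separated WT1 and WT3 from WT4. WT1 and WT3 lay above the other 5 libraries in 12 of 16 macrophage genes, against 9.69% of all genes. Mpeg1, the perforin of macrophages, read 10.06 in WT1, 10.05 in WT3, 7.35 in WT4, 8.51 in WT2 and 7.29, 7.81 and 8.55 in TG1 to TG3. Fcgr1, an immunoglobulin receptor, read 7.46 and 6.86 in WT1 and WT3 and 4.55 in WT4, with 4.79 in WT2 and 4.47 to 5.37 in the transgenic libraries. By the rule 0 of 16 were higher or lower, with a median of 0.34, which was 0.14 without WT1, 0.12 without WT3 and 0.84 without WT4. Cd163, of resident macrophages, lay the other way, with 7.63, 8.11 and 8.24 against 8.66 in WT2 and 9.05, 8.99 and 9.10. Of 21 fibroblast and matrix genes 0 were higher or lower, and WT1 and WT3 lay above the other 5 in 10. The median was 0.15, and it ran from -0.017 without WT1 to 0.27 without WT4. Postn, a matrix protein of remodelling tissue, read 10.36 and 10.56 in WT1 and WT3, 8.47 in WT4, 9.37 in WT2 and 8.38 to 8.99 in the transgenic libraries. Over all genes 52 (0.261%) were at least 1 log2 unit higher in WT1 and WT3 than in the other 5, Arg1, the arginase of activated macrophages, among them. Of 12 T and B lymphocyte genes 0 were higher or lower, and the median was 0.076.

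Cell division genes, a list of 17 added after the data were seen, were led by WT1. Of these 4 were higher and 0 lower, against 0.797% and 0.221% of all genes, with a median of 0.72. In WT1 15 of the 17 were highest, against 19.8% of all genes. Plk1, the mitotic polo kinase, read 6.26 in WT1, 4.79 in WT3, 4.64 in WT4, 4.03 in WT2 and 4.50, 3.89 and 4.05 in TG1 to TG3. Top2a, the topoisomerase of dividing cells, read 6.16, 5.83 and 4.69 against 4.55 in WT2 and 4.26, 4.20 and 4.62. For Top2a and Plk1 the gap between WT4 and the highest Serpina1f-low library was under 0.2 log2 units, and without WT1 the list median was 0.35. Bub1, a checkpoint kinase, had the widest gap of the 4, with 3.91, 3.92 and 3.74 against 2.63, 2.67, 2.67 and 2.85.

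**Figure D3:**
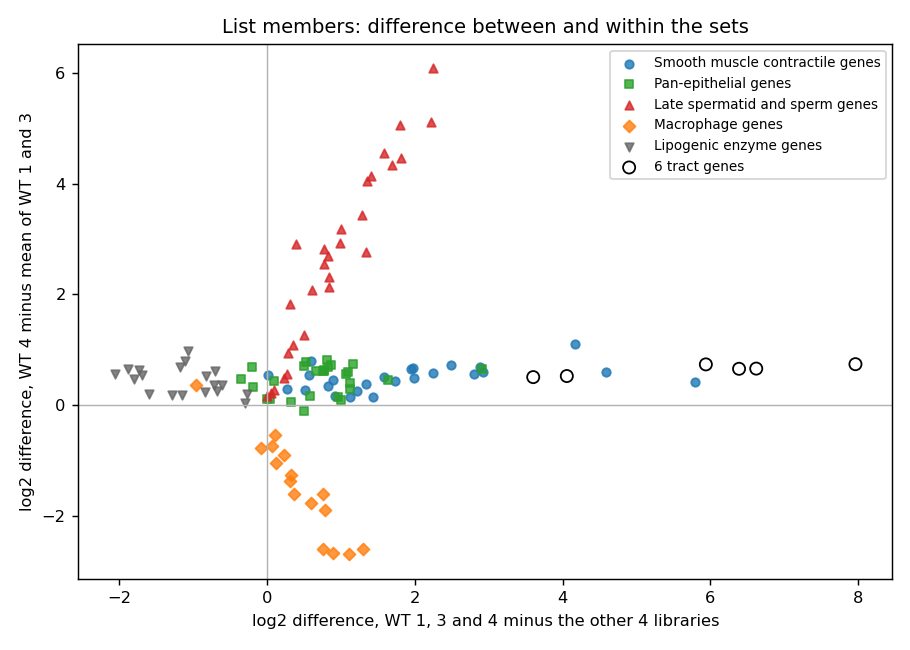
Difference in log2 expression between the 3 Serpina1f-high libraries and the other 4 (horizontal axis), against the difference between WT4 and the mean of WT1 and WT3 (vertical axis). Each point is 1 gene of 5 lists, and open circles are the 6 tract genes. Smooth muscle genes, with a median of 1.59 on the horizontal axis, lie to the right and above 0 on the vertical axis, sperm genes rise steeply on the vertical axis, macrophage genes fall on it and lipogenic genes lie to the left.

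All 23 measured adipocyte genes had lower means in the Serpina1f-high set, by 0.17 to 1.04, where 52.6% of all genes had lower means. Their median was -0.55, and -0.50 within wild type. By the rule 1 was lower, Gpd1, where the share over all genes was 0.221%. Gpd1, which makes the glycerol backbone of fat, read 9.40, 9.68 and 9.47 against 10.03 in WT2 and 9.94, 10.91 and 11.34. Fabp4 read 11.77, 12.09 and 12.17 against 12.31 in WT2 and 12.24, 12.32 and 12.34, a difference of -0.29. WT1 was the lowest of the 7 libraries in 21 of the 23, against 22.6% of all genes.

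Genes of fatty acid synthesis had more lower members than any other of the 28 lists. Of 19 measured, 11 were lower and 0 higher, against 0.221% and 0.797% of all genes. The median was -1.11, and -0.56 within wild type. Fasn, fatty acid synthase, read 9.35, 10.26 and 10.43 against 11.37 in WT2 and 11.15, 12.08 and 12.39. Acss2, which makes acetyl-CoA from acetate, read 6.41, 7.34 and 7.44 against 8.08 in WT2 and 8.10, 9.72 and 10.56. Elovl6, a fatty acid elongase, read 6.13, 6.41 and 6.74 against 6.82 in WT2 and 6.82, 9.15 and 10.10. TG2 and TG3 were above the other 5 libraries in 16 of 19 lipogenic genes, against 6.58% of all genes, and the value within wild type uses none of the transgenic libraries. Across all 46 lower probe sets WT2 and TG1 were the lowest pair of the Serpina1f-low set in 37 (80.4%), against 12.7% of all genes. Gys2, the glycogen synthase isoform of liver and fat, showed the same order, with 3.72, 5.43 and 4.25 against 5.94 in WT2, 5.51 in TG1, 7.76 in TG2 and 7.94 in TG3. Genes outside the list that were lower in the same way included Orm1, an acute phase glycoprotein, Hsd11b1, which regenerates active glucocorticoid, and Gsta3, a glutathione transferase. Orm1 read 8.46, 9.43 and 8.50 against 9.90 in WT2 and 9.65, 10.61 and 11.02.

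Respiratory chain genes had small differences. Of 25 measured, 24 had lower means, against 52.6% of all genes, 0 were lower by the rule and the median was -0.26. Cycs, cytochrome c, read 8.46, 9.03 and 9.06 against 9.26 in WT2 and 8.94, 9.63 and 9.91. The sets overlapped at TG1 for Cycs. TG2 and TG3 were above the other 5 in 20 of these genes.

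Most genes of the pad's surface and vessels had lower means, but 1 of them met the rule. Of 11 mesothelial genes, which mark the lining that covers the pad, 10 had lower means and 1 a higher mean. By the rule 1 was lower and 0 were higher, against 0.221% and 0.797% of all genes. The median was -0.63, with -0.88 within wild type. WT2 was the highest of the 7 libraries in 8 of the 11, against 12.1% of all genes. Upk1b, a uroplakin of mesothelium and urothelium, read 5.81, 6.11 and 7.22 against 7.75 in WT2 and 7.65, 7.34 and 7.25. Msln, mesothelin, read 4.67, 5.38 and 6.02 against 7.08 in WT2, and TG2 and TG3 read 6.02, level with WT4. All 14 endothelial genes had lower means, against 52.6% of all genes, 0 were lower by the rule and the median was -0.25. Kdr, the receptor of vascular endothelial growth factor, read 7.71, 8.16 and 8.18 against 8.74 in WT2 and 8.78, 8.43 and 8.50.

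Protein folding genes of the endoplasmic reticulum did not follow the division within wild type. Of 25 measured, 0 were higher or lower by the rule and the median was -0.47 between the sets, but 0.031 within wild type. Dnajb9, a folding cofactor, read 5.97, 6.61 and 6.94 with 6.69 in WT2, and 7.85, 8.74 and 7.76 in TG1 to TG3. WT2 lay among the wild type libraries there. For smooth muscle the same pair of medians was 1.59 and 1.54, and for the adipocyte list it was -0.55 and -0.50.

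**Figure D4:**
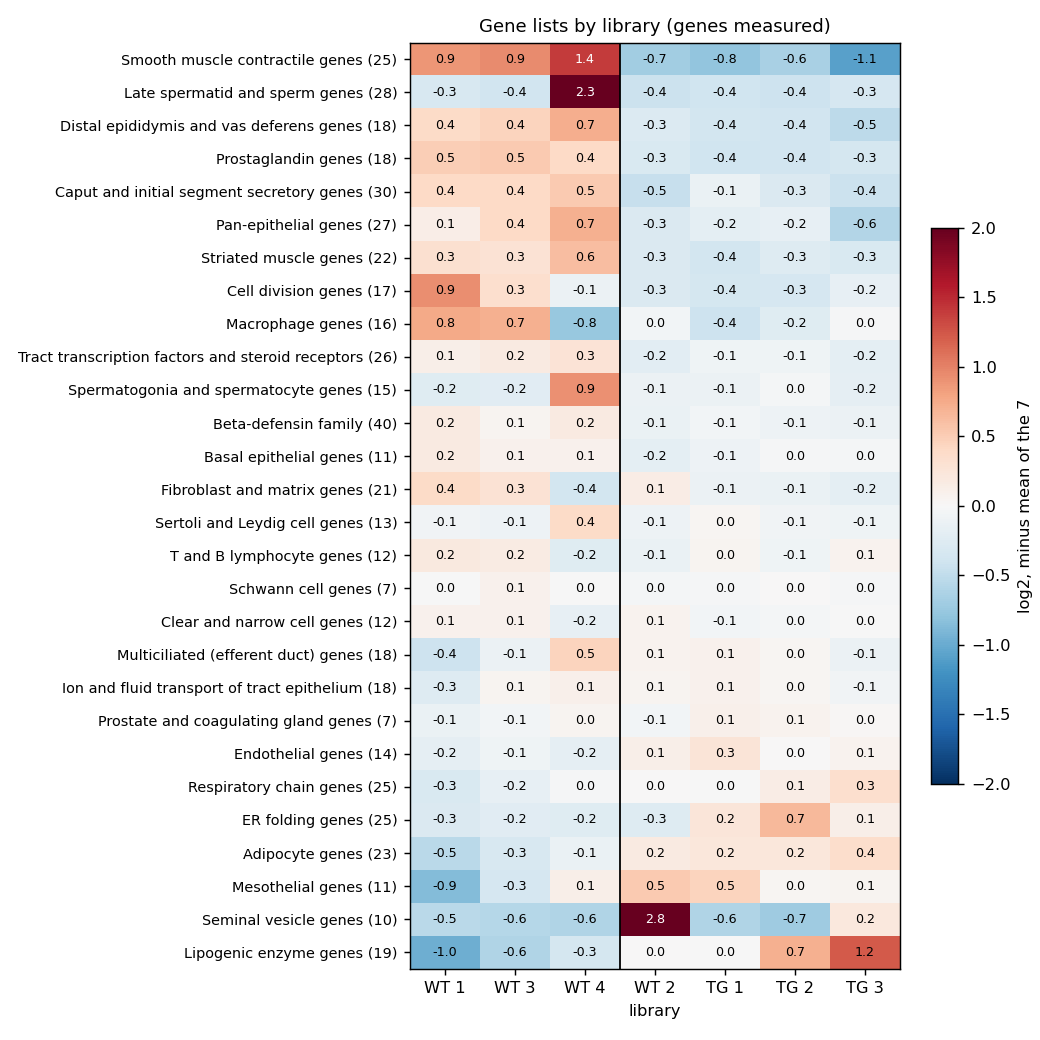
Mean log2 expression of the measured genes of each list in each library, after subtracting the mean over the 7 libraries (colour and printed number), with lists in rows and libraries in columns. The colour scale ends at -2 and 2, the number of genes is in brackets and the vertical line divides the sets. Smooth muscle stands out in all 3 libraries on the left, sperm in WT4, seminal vesicle in WT2, and the folding genes in the 3 transgenic libraries.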

How the data were processed

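RNA of epididymal fat from 7 libraries was measured on Affymetrix Mouse Gene 1.0 ST arrays. The deposited table gives log2 expression for 35556 probe sets, made by the authors with RMA per the submitters' processing notes, which corrects background, normalizes arrays by quantiles and summarises probes. The RMA version is not given in the sources used here. Because RMA gives the arrays 1 distribution, abundant transcripts in some libraries can lower the other values there.

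The platform annotation gave 1 symbol to 21789 probe sets (19938 genes), several to 1621 and none to 12146, and 21698 matched RefSeq by Entrez identifier. Libraries were divided by Serpina1f as stated, and genotype was not the comparison. A difference is the mean of 3 libraries minus the mean of 4, on the log2 scale, and a fold is 2 to that power. No p-value was computed. A gene entered a list by its brightest probe set. Levels of different genes depend on their probes and are not set against each other. A list mean is the mean log2 value of its members. Levels at about the lower quartile are near the arrays' floor, and precision is limited by the number of arrays.

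The members, the lists, the counting rule and the alternatives were chosen with earlier results of these data known. The rule for named genes took the 6 markers, Xbp1, Fabp4 and Adipoq, the 15 largest differences in each direction among genes whose sets do not overlap (without olfactory, vomeronasal, immunoglobulin, microRNA, small nucleolar and predicted genes), and in each list up to 4 members past the fold or else 2 with the largest difference. Further genes named in the text were chosen after their values were seen. Alternatives were other fold minimums, a shift of arrays to a common median, another quantile normalization, other choices of probe sets, leaving out dim probe sets, leaving out each library, WT2 as the only Serpina1f-low library, and splitting by another marker. The lists of cell division, striated muscle and beta-defensin genes were added after the data were seen. Motifs were searched on both strands of RefSeq promoters. The counting was tested on simulated data. Python 3.11.15, pandas 2.3.3, numpy 2.4.6 and matplotlib 3.10.9 were used.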

Additional observations from a re-analysis of the deposited data

Results flagged for a closer look

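In the 4 wild type libraries, 85 named genes and 28 list means were checked for a library whose gap to the nearest other was large against the whole range (above Dixon's critical value for 4 libraries), and 22 exceeded it. Chance flags about 1 in 20 groups that were not chosen by their values. Most of the named genes were chosen by theirs, and many are members of the lists. The 22 are therefore a description and are not set against that rate. Serpina1f put WT2 on the low side, and the other markers and many of the genes were chosen for that division, so for them a low WT2 follows from the choice and is a description, not a test.

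WT2 stood low, with the gap given as a share of the range, at 0.908 for Serpina1f, 0.903 for Spink8, 0.889 for Defb42, 0.891 for Ptgs2, 0.878 for Anxa13, 0.921 for Pcp4, 0.855 for Cnn1 and 0.863 for Bub1. The mean of the caput list gave 0.866 and that of the prostaglandin list 0.844, both with WT2 low. WT2 stood high at 0.993 for Svs2, 0.935 for Svs5 and 0.978 for the mean of the seminal vesicle list, and at 0.863 for Alb, the serum protein albumin. Alb read 7.37 in WT2, between 5.23 and 5.53 in the other wild type libraries and between 6.18 and 7.97 in the transgenic ones.

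WT4 stood high at 0.986 for Mael, 0.952 for Ddx4 and 0.967 for Cyp17a1. The list means with WT4 high were late spermatid and sperm genes at 0.959, spermatogonia and spermatocyte genes at 0.892, and Sertoli and Leydig cell genes at 0.913. WT4 stood low at 0.933 for the clear and narrow cell list, whose mean was 3.65 there and between 3.88 and 3.90 in the other wild type libraries. Atp6v0d2 is a member of that list. WT1 stood low at 0.863 for the ion and fluid transport list, with 4.08 against 4.39 to 4.44.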

How the results depend on the processing

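No paired analysis was possible because the results come from no test and the division does not follow the labels' replicate numbers. Values were compared under each alternative, and 0 of the results changed sign after having been counted as higher or lower. With a 1.5-fold minimum 372 probe sets were higher and 283 lower, and with a 4-fold minimum 42 and 2. Over every row of the table, unnamed rows included, 256 were higher. Leaving out each library, the higher count ran from 166 to 300 and the lower from 30 to 87, and the counts past the gap ran from 86 to 145 upward and from 0 to 6 downward. Within wild type they ran from 265 to 292 higher and 31 to 133 lower, with 127 to 199 and 17 to 48 past the gap. With fewer libraries fewer values have to be apart. With WT2 as the only Serpina1f-low library, list medians moved to 0.23 for the duct transcription factors, -2.56 for seminal vesicle, 0.051 for Schwann cells, -0.56 for lipogenic enzymes and 0.031 for folding genes. Leaving out each library, medians ran from -0.038 to 0.044 for Schwann cells, from 0.086 to 0.25 for prostaglandin genes and from 0.35 to 1.00 for cell division. Medians of further lists moved by over 1.5 times as well: macrophage ran from 0.12 to 0.84, seminal vesicle from -0.99 to -0.15, late spermatid from 0.021 to 1.25, spermatogonia from -0.020 to 0.31, fibroblast from -0.017 to 0.27, multiciliated from -0.26 to -0.0058, distal epididymis from 0.030 to 0.12, duct transcription factors from 0.086 to 0.20, Sertoli and Leydig from 0.017 to 0.10, striated muscle from 0.026 to 0.091, lymphocyte from -0.0031 to 0.13 and folding genes from -0.62 to -0.31. The medians of the caput, clear cell, Schwann, prostate and beta-defensin lists lie near 0, and some change sign with the scaling, so they carry no direction. Probe sets near the floor of the arrays limit what a low value can show.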

Other observations

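WT1 led 35 genes by at least 1 log2 unit over all the other libraries. Chosen after their values were seen, examples were the guanylate-binding proteins Gbp5, Gbp4, Gbp3 and Gbp7 and the immunity-related GTPases Irgm1 and Iigp1. Gbp5 read 7.40 in WT1 and between 4.77 and 5.25 in the other 6. Iigp1 read 8.35 in WT1, 6.12 in WT3, 5.41 in WT4, 6.67 in WT2 and at most 5.96 in the transgenic libraries, and the chemokine Cxcl10 read 5.50 against 3.50 to 4.32. WT1 and WT3, both Serpina1f-high, differed in these genes. No list of such genes was counted.

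The symbol Sympk belongs to 3 probe sets that do not read alike. Probe sets 10401933 and 10504759 hold identical values, 7.54, 7.89 and 8.59 in WT1, WT3 and WT4 against 5.42 in WT2 and 5.32, 5.42 and 5.65 in TG1 to TG3. The third, 10550531, read between 7.76 and 8.03 in all 7 libraries. Altogether, 205 probe sets with 1 symbol (0.941%) had values identical to those of another, so a count of probe sets can hold 1 signal more than once. Abcg2, an efflux transporter of epithelia and vessels, read 9.99, 10.09 and 10.67 against 7.37 in WT2 and 7.16, 7.08 and 7.55. Fads2, a desaturase of polyunsaturated fatty acids, read 9.37, 9.48 and 10.16 against 7.76 in WT2 and 7.97, 7.79 and 7.36, the opposite order to the lipogenic enzymes.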
